A study of Mus musculus with 8 samples.

Results

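The untreated mouse liver of this study was measured on 2 TaqMan microRNA cards, which are the 2 samples labelled as normal liver among the 8 cards of the series. They came from female C57B6 mice, 4 weeks old at the start of the experiment, and had received no carbon tetrachloride (CCl4). The other 6 cards, 2 at each time, hold liver of mice of the same strain, sex and starting age after 1, 4 or 8 weeks of CCl4. It was given in corn oil, injected into the peritoneum biweekly, which the study's methods give as 2 injections a week. These cards are used here mainly to ask whether the order and levels of microRNAs (miRNAs) in normal liver were kept. No group is labelled as given corn oil alone. Differences after CCl4 can therefore not be told apart from effects of the oil, the injections or the age at collection. The labels give the dose as 1 mg/kg. Whether each replicate is another mouse is not in the labels, so the spread between the untreated cards may be technical. Total RNA was taken from whole liver, and in such bulk RNA more cells of a type cannot be told apart from more of a miRNA per cell. Each card carries 381 assays, of which 335 are for mouse miRNAs, 40 for rat miRNAs, 5 for small RNAs used as endogenous controls and 1 for a plant miRNA used as a negative control. The value of an assay is its threshold cycle (Ct), the PCR cycle at which its fluorescence crosses a threshold, so that a lower Ct means more target and a difference of 1 cycle is taken as 1 log2 unit. An assay without a Ct is called undetermined.

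miRNAs are short RNAs cut from hairpin precursors, and they guide Argonaute proteins to messenger RNAs, mostly through the seed, the bases near the 5' end that pair with the target. miRNAs with the same seed form a family and share many predicted targets, while miRNAs whose genes lie close together are often made from a common primary transcript. Normal liver is made mostly of hepatocytes, whose best known miRNA is miR-122, with miR-192 and miR-194 also high in liver and gut epithelium. Endothelial cells carry miR-126, myeloid cells miR-223, lymphocytes miR-150, and stellate and smooth muscle cells miR-143, miR-145 and miR-199a. The members of the miR-29 family target collagens and other matrix proteins.

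The mature sequences of the miRNAs that lead the order, and of their closest relatives on the card, are shown because several of them share a seed and differ from each other at only 1 or 2 bases. They are RefSeq sequences (GRCm38.p6), written 5' to 3' with the seed, bases 2 to 8, in capitals.
mmu-miR-126a-3p: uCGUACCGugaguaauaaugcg
mmu-miR-192-5p: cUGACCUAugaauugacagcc
mmu-miR-215-5p: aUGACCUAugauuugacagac
mmu-miR-194-5p: uGUAACAGcaacuccaugugga
The next group holds leading members of the miR-15/16, miR-29 and miR-30 families, without miR-30b, for which no sequence was matched, and with miR-15a and miR-29b as relatives of lower level.
mmu-miR-16-5p: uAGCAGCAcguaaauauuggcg
mmu-miR-195a-5p: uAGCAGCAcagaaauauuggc
mmu-miR-15a-5p: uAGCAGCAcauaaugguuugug
mmu-miR-29a-3p: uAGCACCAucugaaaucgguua
mmu-miR-29c-3p: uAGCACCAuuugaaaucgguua
mmu-miR-29b-3p: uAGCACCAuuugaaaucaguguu
mmu-miR-30c-5p: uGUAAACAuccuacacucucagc
mmu-miR-30e-5p: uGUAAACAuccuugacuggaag
mmu-miR-30a-5p: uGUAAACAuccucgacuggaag
The last group shows the leading miR-26 and miR-17 family members, both let-7 members nearest the top, and single miRNAs that are taken up again below.
mmu-miR-26a-5p: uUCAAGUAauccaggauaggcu
mmu-miR-26b-5p: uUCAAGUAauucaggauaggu
mmu-miR-17-5p: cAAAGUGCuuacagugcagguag
mmu-miR-106a-5p: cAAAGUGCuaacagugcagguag
mmu-miR-20a-5p: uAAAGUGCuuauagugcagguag
mmu-let-7g-5p: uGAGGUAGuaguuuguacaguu
mmu-let-7e-5p: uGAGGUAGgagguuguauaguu
mmu-miR-19b-3p: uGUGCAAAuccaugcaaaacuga
mmu-miR-24-3p: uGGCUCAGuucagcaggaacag
mmu-miR-191-5p: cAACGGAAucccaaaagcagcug
mmu-miR-146a-5p: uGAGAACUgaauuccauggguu
mmu-miR-223-3p: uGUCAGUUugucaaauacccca
mmu-miR-484: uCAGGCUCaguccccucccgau
mmu-miR-31-5p: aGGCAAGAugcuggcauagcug

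A mature sequence was matched for 153 of the 190 mouse assays determined on both cards and for 26 of the 30 leading miRNAs; none was matched for miR-122, miR-30b, miR-126-5p and miR-145. The 26 leading miRNAs with a sequence carried 19 different seeds, and 12 of them shared a seed with another leading miRNA, in 5 seed groups. Among all 153, 71 assays fell into 24 seeds held by 2 or more assays. Within such a seed the assays spanned a median of 3.85 cycles in mean Ct. Pairs of assays that differed at 1 or 2 bases numbered 35 and included 14 of the leading miRNAs. An assay for 1 member of such a pair may pick up some of the other, which was not measured here, so levels within these pairs are uncertain. Across the 153 assays, the share of G and C in the mature sequence had a Spearman rho of 0.02 with mean Ct, a description over assays, which are not independent replicates.

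Of the 381 assays, 202 (53.0%) had a Ct on both untreated cards, 33 had a Ct on 1 of them and 146 (38.3%) on neither. The mouse assays made up 190 of the 202, with 27 seen on 1 card and 118 on neither. All 5 control RNAs were determined on both cards and the plant assay on neither. Replicate 1 gave 213 values and replicate 2 gave 224, and the assays seen on a single card were 11 for replicate 1 and 22 for replicate 2. How often an assay dropped out depended on its Ct. Of 206 card values below Ct 30, 0 were undetermined on the other card. Between Ct 30 and 32 this was so for 2 of 86 values and between 32 and 34 for 10 of 82. It rose to 14 of 52 between 34 and 36 and to 7 of 11 at 36 or more. An undetermined value is thus not a measurement of absence, and for an assay seen on 1 card its Ct may lie near the end of the range. The rates do not cover assays seen on neither card, where a failing assay cannot be told apart from a low level. Of the 146 assays undetermined on both untreated cards, 102 had no Ct on any treated card and 44 had one on at least 1 of the 6, with at most 4 treated cards for any assay.

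Among the assays seen on a single card, 18 had a Ct below 35, 4 of them on replicate 1 and 14 on replicate 2. On replicate 1 these were miR-330 (33.98), miR-546 (34.1), miR-196b (34.71) and miR-219 (34.96). The lowest Ct of the 18 belonged to miR-124, a neuronal miRNA, at 31.01 on replicate 2. The others on replicate 2 were a rat assay for miR-532-5p (31.57), miR-376b (32.53), miR-465b-5p (32.71), miR-134 (32.82), miR-490 (32.92), miR-495 (33.15), miR-128a (33.19), a rat assay for miR-1 (33.37), miR-672 (33.39), miR-199a-5p (33.97), miR-682 (34.01), miR-467e (34.06) and miR-434-5p (34.08). The miRNAs miR-134, miR-376b, miR-495 and miR-434-5p come from the imprinted Dlk1-Dio3 region.

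Levels were compared after centring each card on the mean Ct of the 186 assays below Ct 35 on both untreated cards, which was 29.18 on replicate 1 and 28.85 on replicate 2. The level of an assay is this centre minus its Ct, in log2 units. miR-126-3p headed the order on both cards, with Ct 20.57 and 19.68 and a level of 8.89 ± 0.39 (SD, n = 2). The miRNA with the highest mean Ct still below 35 on both cards was miR-9, a neural miRNA, at 34.70 and 34.65. The distance between them was 14.55 cycles, which is 23988-fold if every assay doubles its product in each cycle. Efficiencies were not measured, so the order of assays is an order of Ct and not of molecules. The middle of the distribution was narrower, since the 25th and 75th percentiles of the 181 miRNAs lay 5.02 cycles apart. Of the 197 miRNA assays determined on both cards, 23 had a mean Ct below 25, 74 lay between 25 and 30, 90 between 30 and 35, and 10 at 35 or more. Among the miRNAs below Ct 35 on both cards, the 4 next to miR-9 at the low end were miR-590-5p with Ct 34.64 and 34.62, miR-337-3p with 34.21 and 34.54, a rat assay for miR-743b with 33.66 and 34.66, and miR-183 with 33.34 and 34.90.

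The miRNAs after miR-126-3p were miR-192, miR-16, miR-29a, miR-24, miR-122, miR-30c, miR-191, miR-19b and miR-30b, in this order. Next came miR-26a, miR-194, miR-126-5p, miR-146a, miR-17, miR-29c, miR-31, miR-30e, miR-26b and miR-21. The last 10 of the leading 30 were miR-484, let-7g, miR-223, miR-106a, miR-30a, miR-139-5p, miR-20a, miR-145, miR-222 and miR-195. This order was firm at the very top and loose below it. The first 30 of each card had 28 names in common, with let-7e and miR-195 among the first 30 only on replicate 1 and miR-222 and miR-687 only on replicate 2. The step from miR-126-3p to miR-192 was 0.995 cycles and kept its direction on both cards. Of the 29 steps between neighbours in the order, 24 joined miRNAs whose ranges over the cards overlapped, and 7 had the same direction on both cards. The median step was 0.15 cycles, against a pooled SD of 0.32 log2 units between the cards for these 30. miR-16 and miR-29a show this. miR-16 had Ct 21.95 and 20.62, while miR-29a had 21.70 and 21.78, so that miR-29a stood above miR-16 on replicate 1 and below it on replicate 2.

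**Figure D1:**
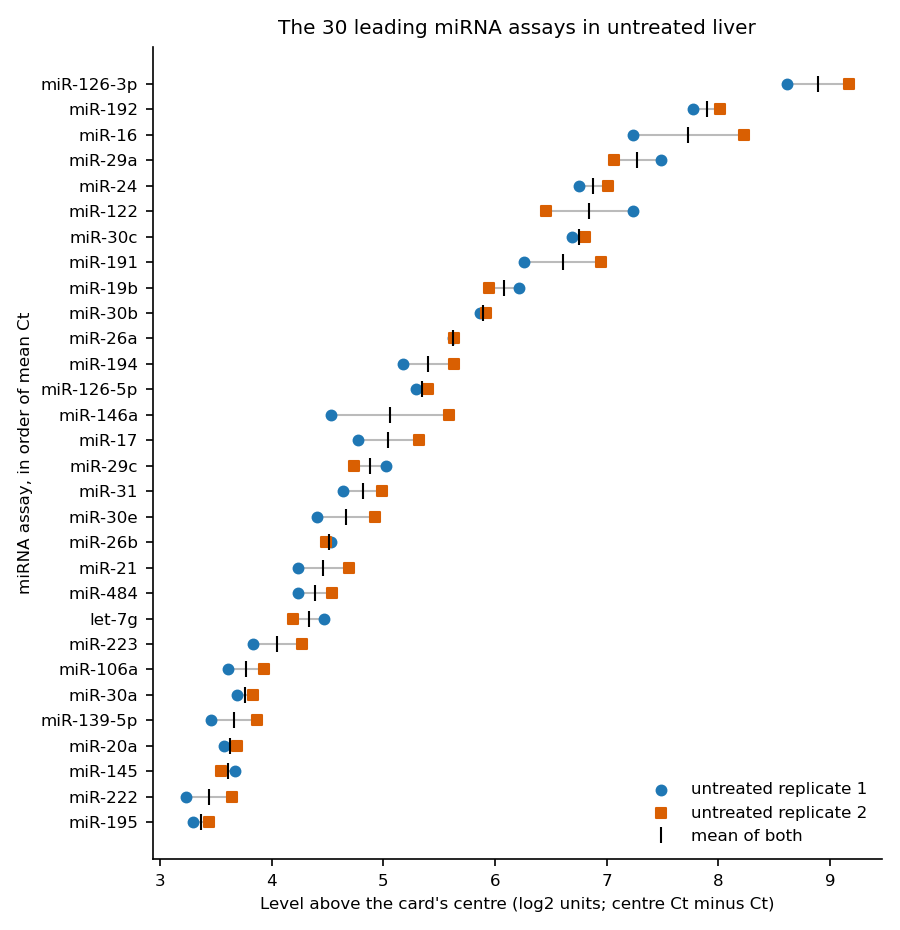
Level of the 30 leading miRNA assays on each untreated card, as log2 units above the card's centre (horizontal axis), in order of mean Ct (vertical axis); circles are replicate 1, squares replicate 2 and vertical ticks their mean. miR-126-3p is highest on both cards, and most neighbours below it overlap.

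The signal was held by few miRNAs. When 2 to the power of -Ct was summed over all miRNA assays of a card, miR-126-3p alone held 18.2% of the sum on replicate 1 and 22.3% on replicate 2. The first 5 assays held 48.6% and 54.1%, the first 10 held 70.1% and 71.3%, and the first 30 held 90.03% and 91.4%. At the other end, 110 assays on replicate 1 and 119 on replicate 2 had a Ct of 30 or more and together gave 0.678% and 0.573% of the sum. These shares take each assay as equally efficient and hold no error beyond the difference between both cards.

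**Figure D2:**
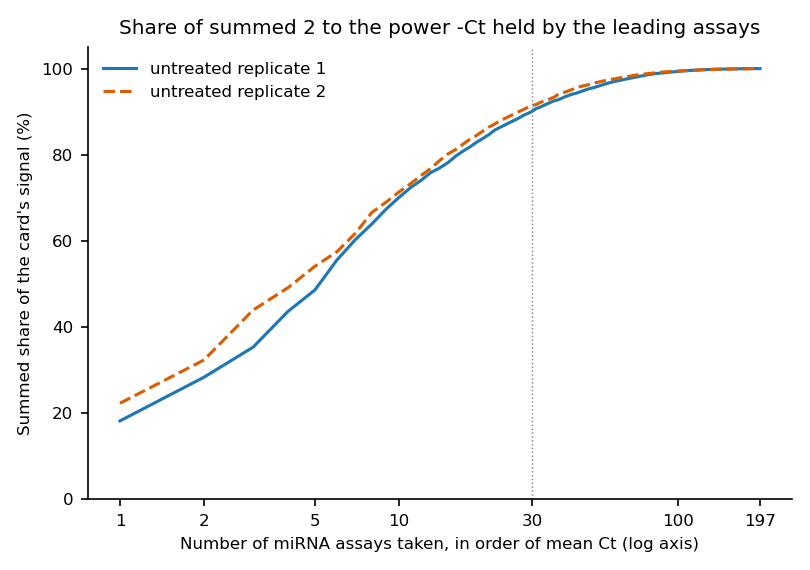
Summed share of a card's signal, 2 to the power of -Ct over all miRNA assays in percent (vertical axis), against the number of assays taken in order of mean Ct (horizontal log axis), 1 line per untreated card. At 30 assays, marked by the dotted line, the lines stand at 90.03% and 91.4%.

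The tissue label was checked against the miRNAs of hepatocytes. All 7 members of the hepatocyte list were determined on both cards, 3 of them among the leading 30, and together they held 19.4% and 15.9% of the summed signal. miR-192 was the highest, with Ct 21.41 and 20.83 and a level of 7.90 ± 0.17 (SD, n = 2), second to miR-126-3p. miR-122 had Ct 21.95 and 22.39 and a level of 6.85 ± 0.55. It was the sixth miRNA by mean Ct, and its difference in level, replicate 2 minus replicate 1, was -0.77 log2 units, among the larger differences in the leading 30. miR-194, whose gene neighbours that of miR-192, had Ct 24.01 and 23.22. The lowest member was miR-193, with Ct 29.96 and 28.97. miR-215 has the same seed as miR-192, and its gene lies beside a second copy of the miR-194 gene. Its mean Ct was 32.14, which is 11.02 cycles later than miR-192.

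Both arms of the endothelial miR-126 hairpin were among the leading 30 and held 19.98% and 23.9% of the sum, most of it from the 3p arm. miR-126-5p had Ct 23.89 and 23.45, which is 3.32 and 3.77 cycles later than miR-126-3p. Leukocyte miRNAs stood lower. All 7 members of that list were determined on both cards and held 2.16% and 3.08%. The highest was miR-146a, an inducible regulator of innate immune signalling, with Ct 24.65 and 23.26. Its level differed by 1.06 log2 units between the cards, the widest gap among the leading 30. The granulocyte and macrophage miRNA miR-223 had Ct 25.35 and 24.58, and the lowest of the list was miR-142-5p at 33.97 and 33.94. Of the 5 stellate and smooth muscle members, 4 were determined on both cards. They ran from miR-145, with Ct 25.51 and 25.30, to miR-214, with 28.32 and 28.30, and all 5 together gave 0.974% and 0.733% of the sum. The fifth, miR-199a-5p, had a Ct on replicate 2 only. The erythroid miR-486 had Ct 27.37 and 27.38 and miR-451 had 30.51 and 30.68.

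The miR-30, miR-29 and miR-15/16 families held less signal than the hepatocyte and endothelial lists on each card and more than the leukocyte and stellate lists. The miR-30 family had 5 of 5 members determined, 4 of them among the leading 30, and a span of 4.08 cycles from miR-30c to miR-30d. It held 9.36% and 8.66% of the sum. The miR-29 family held 9.82% and 6.24%. Its first member, miR-29a, had Ct 21.70 and 21.78 and its second, miR-29c, had 24.16 and 24.11. miR-29b came 8.69 cycles after miR-29a, although the genes of miR-29b lie beside those of miR-29a and of miR-29c. In the miR-15/16 family, miR-16 with Ct 21.95 and 20.62 stood 9.69 cycles ahead of miR-497, the lowest of its 6 members. The family held 7.76% of the sum on replicate 1 and 12.3% on replicate 2, with miR-16 alone at 6.98% and 11.6%. Both miR-26 members, which differ outside the seed, lay 1.11 cycles apart and held 3.36% and 2.78%.

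The miR-17-92 cluster and its paralogs had the widest span in Ct of the miRNA lists. Of its 13 members, 11 were determined on both cards and 2 on neither, and they spanned 10.64 cycles from miR-19b, with Ct 22.97 and 22.90, to miR-18a, with 33.94 and 33.21. miR-17, miR-106a and miR-20a were also among the leading 30. miR-17 and miR-106a differ at 1 base in the sequences above and lay 1.27 cycles apart. The let-7 family, which restrains growth and is abundant in adult tissues, had 9 of 9 members determined, but only let-7g was in the leading 30, and the family held 2.36% and 1.28% of the sum. let-7g had Ct 24.71 and 24.66, and miR-98 at the low end had 32.29 and 31.63. Relative to the card's centre, 8 of the 9 let-7 members were lower on replicate 2, with a median difference of -0.76 log2 units over the 9, beside 92 of the 186 assays below Ct 35. The miR-23/24/27 clusters had 4 of 5 members determined on both cards. miR-24 had Ct 22.43 and 21.84, ahead of miR-23b, the lowest, by 8.18 cycles.

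The remaining families stood in the middle of the range, with no member among the leading 30. The miR-99/100 and miR-125 list was the tightest of the larger groups, its 5 members lying between a mean Ct of 26.98 for miR-125b-5p and 28.78 for miR-99b. The family of miR-148 and its relatives ran from miR-148a at 25.95 to miR-148b at 32.31, and the family of miR-130 from miR-130a at 27.84 to miR-130b at 31.60. miR-103 and miR-107 had mean Cts of 28.23 and 29.91. The epithelial miR-200 family was determined in full, from miR-200b at 27.24 to miR-141 at 32.85. Bile duct epithelium is a known source of this family in liver, and it gave 0.376% and 0.335% of the sum.

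Lists of miRNAs of other tissues held little of the signal, although some members lay in the middle of the range. Of the 6 skeletal and cardiac muscle assays on the card, 1 was determined on both cards and 4 on neither. That one, miR-133a, had Ct 33.73 and 30.30. Of 14 neuronal assays, 6 were determined on both cards, from miR-132 with Ct 29.17 and 28.97 to miR-9. For the pancreatic list this was 1 of 4, the islet miRNA miR-375 with Ct 33.29 and 32.79. The clusters of pluripotent cells, miR-290 to miR-295 and miR-302 with miR-367, had 2 of 12 assays determined, miR-294 and miR-295, with mean Cts of 33.10 and 34.30. The X-linked testis clusters had 2 of 17, miR-547 at 32.15 and miR-741 at 35.11. In the imprinted Dlk1-Dio3 region 14 of 40 assays were determined on both cards, 7 on 1 and 19 on neither, from miR-494 at 29.64 to miR-410 at 35.33. The sensory miR-183 cluster had 3 of 3, from miR-182 at 29.75 to miR-96 at 35.81. Each of these lists of other tissues held at most 0.107% of the summed signal of a card.

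**Figure D3:**
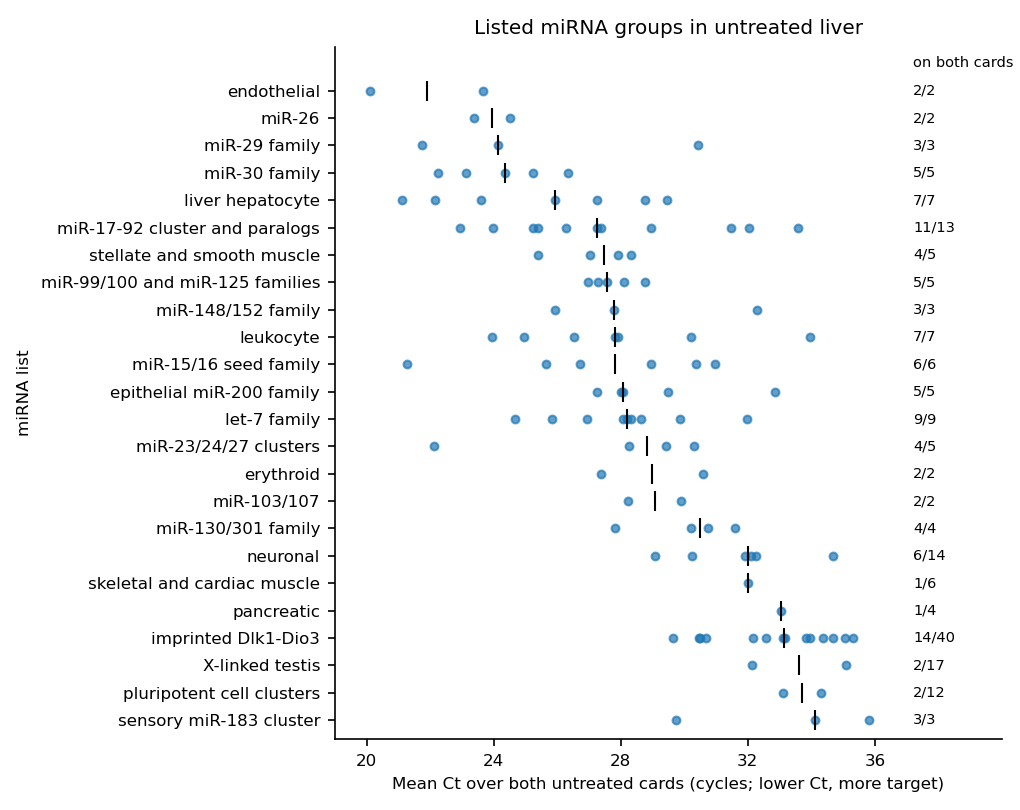
Mean Ct over both untreated cards (horizontal axis, in cycles, lower Ct meaning more target) of every listed miRNA determined on both, 1 point per assay, with the median of each list as a vertical tick and the number determined on both cards out of those on the card at the right. Endothelial, miR-26, miR-29 and miR-30 lists lie lowest in Ct, and the muscle, pancreatic, testis and pluripotent lists lie at the high end with few members determined. The sensory miR-183 list has the highest median, 34.12, with 3 of 3 members determined.

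The control RNAs spanned 13.1 cycles. U6, a spliceosomal RNA, had Ct 18.42 and 17.24, snoRNA202 had 21.28 and 21.08, U87 had 25.85 and 25.15, snoRNA135 had 25.92 and 25.22, and Y1 had 31 and 30.95. U6 was the assay with the lowest Ct of the whole card, and after centring it was 0.85 log2 units higher on replicate 2.

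Both arms of a hairpin are made in equal number, and usually 1 of them is kept. The card has assays for both arms of 36 hairpins, and for 12 of them both arms were determined on both cards. In 11 of the 12 the same arm had the lower Ct on both cards, the 5p arm in 5 and the 3p arm in 6. miR-142-3p had Ct 27.93 and 27.69, ahead of its 5p arm by 6.04 and 6.25 cycles. In miR-125a the 5p arm led, at Ct 28.37 and 27.82 against 35.17 and 34.26 for the 3p arm. The 3p arm of miR-331 had the widest mean lead, 7.74 cycles, but its 5p arm was at 32.38 on replicate 1 and at 37.77 on replicate 2. The remaining 8 had mean differences between the arms of a size from 0.91 cycles in miR-335 to 4.19 in miR-345. miR-337 was the exception, with arms that changed order between the cards. Neither arm was determined for 13 hairpins. For the other 11, at least 1 arm was missing on at least 1 card. In miR-139, for example, the 5p arm was at 25.73 and 24.98 and the 3p arm was undetermined on both.

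miRNAs from genes that lie together often differed in Ct. Among the 153 assays with a sequence, 30 groups of miRNA genes lay within 10 kb of each other on the same strand of GRCm38.p6, and in 20 of them the assays spanned over 3 cycles, with a median of 4.00. With only the arm of lower Ct kept for each hairpin, a choice made after seeing the data, 18 of the 30 spanned over 3 cycles and the median was 3.75. The genes of miR-199a-3p and miR-214 gave mean Cts 0.385 cycles apart. The genes of let-7e and miR-125a gave a span of 8.87 cycles to the 3p arm of miR-125a, but of 2.25 from let-7e to its 5p arm. miRNAs made from several gene copies, such as miR-19b and miR-24, cannot be assigned to a single group.

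For 16 names the card has a mouse and a rat assay. Several of these names, such as miR-377 and miR-543, had no Ct from either assay. Only miR-224, miR-339-3p, miR-345-3p and miR-351 had a Ct from both assays on both cards. Their Cts differed although the name is shared, with the same assay lower on both cards for all but miR-351. The mouse assay for miR-345-3p had Ct 34.52 and 35.36 and the rat assay 29.79 and 29.57. The rat assay for miR-207 had 30.09 and 31.10, while the mouse assay was undetermined on both cards. In all, 7 of the 40 rat assays were determined on both cards, so a Ct in this table belongs to an assay and not to a miRNA name.

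Both untreated cards agreed to within 1 log2 unit for 155 of the 186 assays below Ct 35. Across these assays the Cts of the cards had a Pearson r of 0.974 and a Spearman rho of 0.968, a description over assays that share the same RNA. The pooled SD between the cards was 0.57 log2 units. It was 0.35 for the 25 assays with a mean Ct below 25, 0.43 for the 76 between 25 and 30, and 0.70 for the 85 between 30 and 35. The 16 assays determined on both cards but not below 35 on both had a pooled SD of 1.36. Before centring, 137 of the 186 assays had the lower Ct on replicate 2, by 0.33 cycles on average over the 186. After centring the split was even, with 94 assays higher on replicate 2 and 92 lower.

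**Figure D4:**
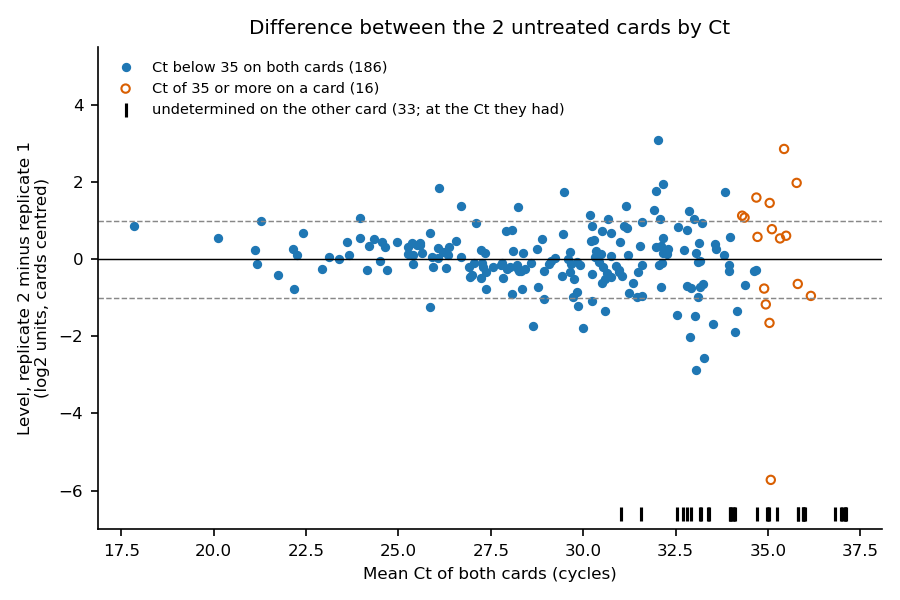
Difference in centred level between the untreated cards, replicate 2 minus replicate 1 in log2 units (vertical axis), against mean Ct in cycles (horizontal axis); filled points are the 186 assays below Ct 35 on both cards, open points the 16 that were not, dashed lines mark 1 log2 unit, and ticks at the bottom give the Ct of the 33 assays undetermined on the other card. The scatter widens above Ct 30, where the 33 single values also lie.

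The 5 widest differences among the 186 assays were all at a mean Ct above 32. miR-133a, the muscle miRNA, was 3.10 log2 units higher on replicate 2. miR-351, miR-202-3p and miR-674 went the other way, with differences in level of -2.88, -2.57 and -2.02. miR-351 had Ct 31.78 and 34.33, and miR-202-3p had 32.16 and 34.40. miR-547, at 33.29 and 31, was 1.96 units higher on replicate 2. Some assays with a mean Ct below 30 also differed widely, of which 3 were chosen after their values were seen. miR-687 had Ct 27.18 and 25.01 and was 1.84 units higher on replicate 2, and miR-200c with 30.52 and 28.45 was 1.74 higher. let-7c, at 27.95 and 29.34, had a difference of -1.72.

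The order of miRNAs in untreated liver was largely kept after CCl4, though less closely than between the untreated cards. Over the 144 miRNA assays below Ct 35 on every card, Spearman's rho between the untreated cards was 0.979. Each untreated card was set against each treated card. The 4 values at 1 week lay between 0.888 and 0.929, those at 4 weeks between 0.859 and 0.920, and those at 8 weeks between 0.923 and 0.963, so that all 12 were below the value of the untreated pair. Within a treated group rho was 0.957 to 0.982. The first 30 of an untreated and a treated card shared 24 to 28 names, against 28 between the untreated cards and 26 to 29 within a treated group. By mean Ct, 26 of the leading 30 were still among the first 30 at 1 week, 27 at 4 weeks and 27 at 8 weeks. These values rest on 2 cards a group and on the same untreated cards at every time.

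miR-126-3p was first by the mean Ct of the 2 cards in every group, but not on every card. On replicate 2 of 4 weeks its Ct was 23.97, after miR-122 with 23.69 and beside miR-223 with 23.94. On that card 47.7% of all Ct values fell in the last 0.1 of a cycle, as these values of miR-126-3p and miR-223 did, and no order is read between them. miR-192 went from rank 2 to 5, 10 and 4 at 1, 4 and 8 weeks, and miR-194 from 12 to 21, 28 and 20. miR-122 went from rank 6 to 14, 3 and 2. miR-223 moved from rank 23 to 10, 2 and 12. The miRNAs that left the first 30 had stood at ranks 19 to 30. They were miR-26b, miR-30a, miR-20a and miR-195 at 1 week, let-7g, miR-139-5p and miR-195 at 4 weeks, and miR-106a, miR-30a and miR-139-5p at 8 weeks. miR-342-3p, at rank 32 in untreated liver, entered at all 3 times, with ranks 13, 14 and 19. miR-146b, miR-150 and miR-186 entered at 1 week only, from ranks 61, 42 and 49, and miR-142-3p at 4 weeks only, from rank 59. let-7e, just outside at rank 31, entered at 4 and 8 weeks and miR-10b at 8 weeks.

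**Figure D5:**
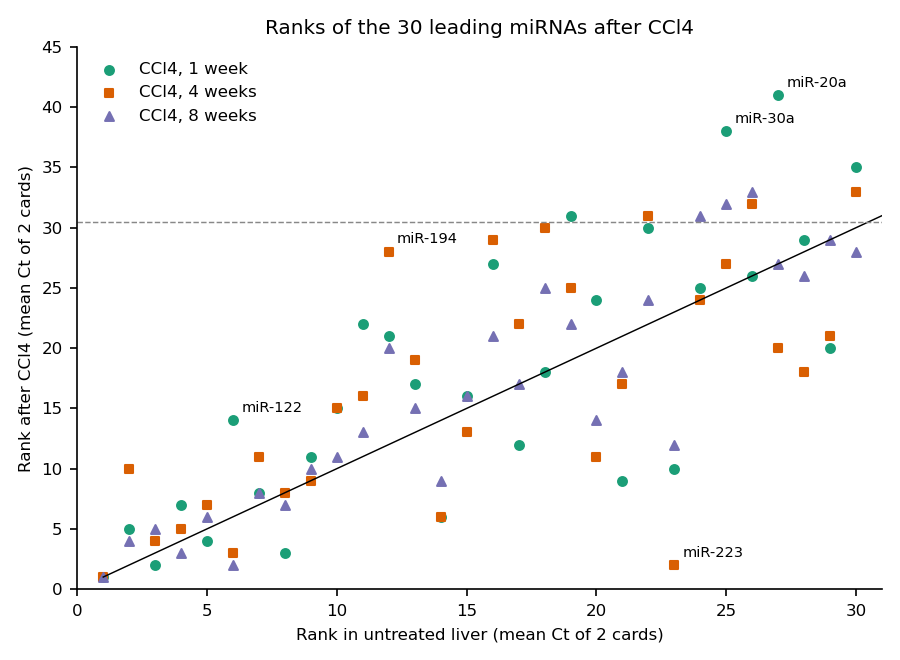
Rank by mean Ct of 2 cards after CCl4 (vertical axis) against rank in untreated liver (horizontal axis) for the 30 leading miRNAs, with circles, squares and triangles for 1, 4 and 8 weeks; the solid line marks equal ranks and the dashed line the edge of the first 30. miR-126-3p is at rank 1 in every group, and miR-223 at 4 weeks has moved from rank 23 to 2.

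To say which of these shifts exceeded the replicate spread, limma was fitted to all 8 cards, here centred on the 149 assays below Ct 35 on every card. Assays entered the test if all 8 cards gave a Ct and its mean was below 35, which 166 did. The leading 30 were picked on the untreated cards that enter the test, so their counts and median difference are a description beside those of all assays. A pick by low untreated Ct can by itself shift differences downward, also those of the single leading miRNAs named below. The size of this shift was not tested. At 1 week 11 of the 30 passed an adjusted p of 0.05, where 32.5% of all tested assays did. Of the 11, 6 were higher and 5 lower, beside 18.1% and 14.5% of all assays. At 4 weeks 15 passed, where 30.1% of all assays did. Of these, 1 was higher and 14 lower, beside 13.3% and 16.9% of all. The median difference of the 30 was -0.06 log2 units at 1 week, -0.87 at 4 weeks and -0.58 at 8 weeks, against -0.09, 0.03 and -0.04 over all 166 assays. At 8 weeks 0 of the 30 passed in limma, beside 3.01% of all assays, 2.41% higher and 0.602% lower, and 8 of the 30 had an unadjusted p under 0.05, as did 40 of the 166. Scaling changed how many passed in each direction, while no call among the 30 in the main fit reversed. Centred on U6, snoRNA135 and snoRNA202, 7 of the 30 passed at 4 weeks, 3 higher and 4 lower, beside 56 of the 166. In the main fit U6 itself differed from untreated liver by 2.38 and -1.50 log2 units at 1 and 4 weeks (limma adjusted p of 0.0080 and 0.042). snoRNA202 differed by -1.39 at 1 week (limma adjusted p = 0.014), while its 4-week difference and those of snoRNA135 did not pass. Centred on the mean of all determined assays of a card, 8 passed at 1 week, 2 higher and 6 lower, beside 51 of the 166. Calls also depended on single cards, among the 30 and among all assays. Without untreated replicate 1 the counts at 1 and 4 weeks were 2 and 9, beside 17 and 35 of 168 assays. Without untreated replicate 2 they were 5 and 7, beside 39 and 22 of 167. Without replicate 1 of 1 week the count at that time was 2, beside 28 of 171, and without replicate 2 it was 2, beside 24 of 166. Without replicate 2 of 4 weeks the count there was 7, beside 31 of 172.

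miR-223 was the leading miRNA that rose most. Untreated liver had centred levels of 3.00 and 3.41. After 1 week of CCl4 they were 5.49 and 5.04, after 4 weeks 6.11 and 5.83, and after 8 weeks 4.50 and 4.35. All treated cards lay above both untreated cards, and the difference was 2.06 ± 0.31 log2 units (SE) in the first comparison and 2.77 ± 0.31 in the second, with limma adjusted p of 0.0041 and 0.0017. At 8 weeks it was 1.22 ± 0.31 with an adjusted p of 0.079. miR-192 had levels of 6.94 and 7.16 untreated and of 4.76 and 3.81 at 4 weeks, a fall of 2.76 on the log2 scale (limma adjusted p = 0.0046). miR-194 fell with it, by 2.49 on the log2 scale at 4 weeks, from 4.34 and 4.77 to 2.30 and 1.82 (limma adjusted p = 0.0046). In raw Ct the 4-week cards lay apart, with miR-192 at 23.49 and 25.96 and miR-194 at 25.95 and 27.95. Replicate 2, the card with the later Cts, gave the lower level of both. It is also the card with the fewest determined assays, 193, and with 47.7% of Ct values in the last 0.1 of a cycle. miR-126-3p had levels of 7.78 and 8.31 untreated and of 6.62 and 5.80 at 4 weeks, a fall of 1.83 on the log2 scale (limma adjusted p = 0.014). That call was lost with centring on U6, snoRNA135 and snoRNA202 (-1.19, limma adjusted p = 0.069), with no centring (-2.67, limma adjusted p = 0.061), without untreated replicate 2 (-1.57, limma adjusted p = 0.082) and without replicate 2 of 4 weeks (-1.42, limma adjusted p = 0.074). At 1 and 8 weeks its differences were 0.64 and -0.92 log2 units with limma adjusted p of 0.26 and 0.20. miR-484 had levels of 3.40 and 3.68 untreated and of 5.23 and 5.43 at 1 week, 1.79 ± 0.29 higher (limma adjusted p = 0.0052). At 4 weeks its 3.49 and 3.82 overlapped the untreated range. miR-122 did not pass at any time, with differences of -1.20 ± 0.48, -0.23 ± 0.48 and 0.09 ± 0.48 log2 units (SE) and limma adjusted p of 0.095, 0.74 and 0.92. Its untreated levels were 6.40 and 5.60. The differences of miR-223, miR-192, miR-194 and miR-484 that passed kept their direction under every centring tried. With no centring, the miR-484 call and both miR-223 calls were lost. The differences were then 1.27 log2 units for miR-484 at 1 week (limma adjusted p = 0.40) and 1.54 and 1.92 for miR-223 at 1 and 4 weeks (limma adjusted p of 0.33 and 0.16).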

How the data were processed

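Total RNA of whole liver was isolated with a mirVana kit, and 500 ng was reverse transcribed without pre-amplification and run on TaqMan Array Rodent MicroRNA A Cards by the authors. The deposited table holds other values than counts, namely raw Ct, 1 per assay and card, with undetermined assays empty; the software and threshold that set the Ct are not given in the sources used here. A second deposited table of fold changes to untreated liver, made by the authors after scaling each card to its geometric mean, was not used. The labels give the dose in mg/kg, the study's methods in ml for the same number. All 8 value columns matched a sample by name.

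Each untreated card was centred on the mean Ct of the assays below 35 on both cards, and levels are centre minus Ct. Shares are of 2 to the power of -Ct over the miRNA assays. Groups came from the labels. Treated cards were compared with limma 3.58.1 (lmFit, eBayes, R 4.3.3) over all 8 cards, with Benjamini-Hochberg adjustment over 166 assays, after a test on simulated data. An exact test of 2 cards against 2 cannot go below p = 0.33 and was not used. Everything else was computed with Python 3.11.15 and pandas 2.3.3. Sequences were matched by name to RefSeq (GRCm38.p6); assay names follow an older miRBase, and missing arms and changed names were assigned by hand, on which the printed sequences and seeds rest. Alternatives were other centrings, Ct limits, a replicate block, an eBayes trend, other numbers of leading assays and leaving out each card.

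The miRNAs named are the 30 of lowest mean Ct, the lowest, the highest and the leading members of each list, the control RNAs, the 5 widest differences between the cards and the 5 of highest mean Ct, both among assays below Ct 35 on both cards, those seen below Ct 35 on a single card, and hairpins with both arms; rat assays with a mouse namesake, miRNAs that entered the first 30, and relatives whose sequences are shown were named after their values were seen. The members and lists were chosen with earlier results of these data known. The number of cards limits the precision.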

Additional observations from a re-analysis of the deposited data

Results flagged for a closer look

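miR-31 drew attention because its difference from untreated liver had opposite directions at 2 times. Untreated liver had centred levels of 3.81 and 4.13. After 1 week of CCl4 they were 4.80 and 4.95, and after 4 weeks 2.61 and 2.84. The difference from untreated liver was 0.90 log2 units at 1 week (limma adjusted p = 0.046) and -1.24 at 4 weeks (limma adjusted p = 0.014). The difference between these times, 4 weeks minus 1 week, was -2.14 ± 0.29 log2 units (SE), and both 4-week cards lay below both 1-week cards. Because miR-31 was picked for its opposite directions, this value restates the 2 differences above and is no separate test. The call at 1 week was lost with a replicate block (limma adjusted p = 0.073), under 4 other centrings and when any 1 of the 8 cards was left out. Its direction was kept each time, and the other centrings moved the median 1-week difference of all assays by -0.03 to -0.51 log2 units. The call at 4 weeks was lost with centring on U6, snoRNA135 and snoRNA202 (-0.60, limma adjusted p = 0.19), with no centring (-2.08, limma adjusted p = 0.13), without untreated replicate 2 (-1.09, limma adjusted p = 0.086) and without replicate 1 of 4 weeks (-1.12, limma adjusted p = 0.056).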

How the results depend on the processing

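In untreated liver, the 202 determined assays became 186 when a Ct of 35 or more counted as undetermined and 137 at 32 or more. The range of 14.55 log2 units became 11.47 with Ct below 32 on both cards and 16.04 with no limit. Without 1 of the untreated cards it was 14.39 or 15.22. The median rho of untreated and treated cards, 0.92, became 0.89 with Ct below 32 on every card. The first 20 and the first 50 shared a median of 16 and 42 names with treated cards, against 26 for the first 30. Of the leading 30, at 1 week 0 were called with no centring, beside 5 of all 166 assays. In the fit as reported, 6 of the leading 20 and 17 of the leading 50 were called at 1 week, beside 54 of 166. At 4 weeks 7 were called with centring on U6, snoRNA135 and snoRNA202, beside 56 of 166, and 3 with no centring, beside 10. At 8 weeks 1 was called with that control centring, beside 12, and 2 with an eBayes trend, beside 11. Leaving out each card in turn gave 2 to 10 calls at 1 week, 7 to 15 at 4 weeks and 0 at 8 weeks; the lowest counts came without an untreated card or a card of the time tested. Calls among all tested assays at 1 and 4 weeks also fell without either untreated card. The drop was thus not limited to the leading 30. Centring on the control RNAs moved the median difference of all assays by -0.24, 0.64 and 0.46 log2 units at 1, 4 and 8 weeks, and no centring by -0.51, -0.85 and -0.01. With the replicate block the counts at 1, 4 and 8 weeks were 10, 14 and 0 of the 30, beside 50, 49 and 4 of 166. Deviations of same-numbered cards from their group means correlated between -0.50 and 0.43, so the numbers were not taken as pairs. All 390 recomputed differences of the 26 single calls kept their direction, and 111 no longer passed. The other alternatives of these results stayed within 1.5 times of a count or 1 SD of a value. For the agreement of the untreated cards, the value is itself the pooled SD. That limit was as wide as the value and could hardly be passed, so nothing is read from it. The cause of the shifts between settings was not tested.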

Other observations

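The decimals of the Ct values were uneven. If decimals were spread evenly, 10% of values would fall in the last 0.1 of a cycle. The share was 17.4% of 213 values on untreated replicate 1 and 15.6% of 224 on replicate 2. Cards of 1 week of CCl4 had 26.3% and 32.4%. Those of 4 weeks had 12.3% and 47.7%, and those of 8 weeks 15.04% and 20.1%. The 4-week card with 47.7% also had the fewest determined assays, 193. The part of this pattern in the differences between cards was not tested.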
